A study of Arabidopsis thaliana with 4 samples.

Results

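The genes described here are 10 activators of *FLOWERING LOCUS C* (*FLC*), chosen by their gene identifiers from the 33854 genes in the expression tables. Of these, 6 are grouped here as FRIGIDA complex genes, *FRIGIDA* (*FRI*, AT4G00650), *FRIGIDA LIKE 1* (*FRL1*, AT5G16320), *FRIGIDA LIKE 2* (*FRL2*, AT1G31814), *FRIGIDA ESSENTIAL 1* (*FES1*, AT2G33835), *SUPPRESSOR OF FRIGIDA 4* (*SUF4*, AT1G30970) and *FLC EXPRESSOR* (*FLX*, AT2G30120). The sources used here do not say whether each of them is a subunit. Another 3 encode subunits of the SWR1 complex, *PHOTOPERIOD-INDEPENDENT EARLY FLOWERING 1* (*PIE1*, AT3G12810), *ACTIN-RELATED PROTEIN 6* (*ARP6*, AT3G33520) and *SWC6* (AT5G37055). The remaining gene, *HTA9* (AT1G52740), encodes the histone variant H2A.Z.

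The study sequenced poly-A RNA of 12-day-old *Arabidopsis thaliana* seedlings grown at 22 °C on Murashige and Skoog medium in days of 16 h light and 8 h dark. Accession Col-0 served as the wild type. The *35S-COLDAIR* plants, made in Col-0, carried the full-length *COLDAIR* sequence of the first *FLC* intron behind the *CaMV 35S* promoter, which is active in most tissues, and came from 1 transgenic line. Each genotype had 2 libraries, replicates 1 and 2. The labels do not say whether the replicates were grown apart, so the p-values measure only the spread between these libraries. The comparison asks whether the transcript levels of the upstream activators of *FLC* differ in plants in which *FLC* itself is high. The unit of all values, FPKM, divides the fragments of a gene by transcript length and library depth.

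FLC is a MADS-box protein that represses flowering. The FRIGIDA complex is recruited to the *FLC* promoter, where SUF4 binds DNA and FRI holds the other subunits together, and it raises *FLC* transcription. The SWR1 complex exchanges histone H2A for H2A.Z in nucleosomes, also at *FLC*, and loss of its subunits lowers *FLC* transcription and leads to early flowering. Winter-annual accessions carry an active *FRI*, whereas Col-0 carries a natural loss-of-function allele, so that both genotypes compared here lack FRI function.

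The *FRI* allele is shown first, because the gene is counted in these libraries although its reading frame is cut short. In the TAIR10.1 reference, which is the Col-0 genome, *FRI* lies on the plus strand at chr4:268901-271503 and has 3 exons and 1 transcript of 2121 bases. Its coding sequence of 945 bases, 314 codons and the stop, ends after the first 6 bases of exon 2 at position 270363, and 1051 bases of the transcript follow the stop. The last 60 coding bases are given 5′ to 3′ with the stop codon in capitals.
FRI coding end: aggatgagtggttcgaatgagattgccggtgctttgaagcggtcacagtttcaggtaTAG
Read in the frame shifted by 2 bases, the transcript holds no stop for 302 codons, of which 288 lie after this stop, whereas the frame shifted by 1 base is without a stop for only 8 codons there. An FPKM value of *FRI* counts the whole transcript, the bases behind the stop included, and is no measure of a functional protein. An antisense RNA gene, AT4G03675, overlaps exon 3 over its 195 bases, and the sources used here do not say whether the counting used strand.

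**Figure D1:**
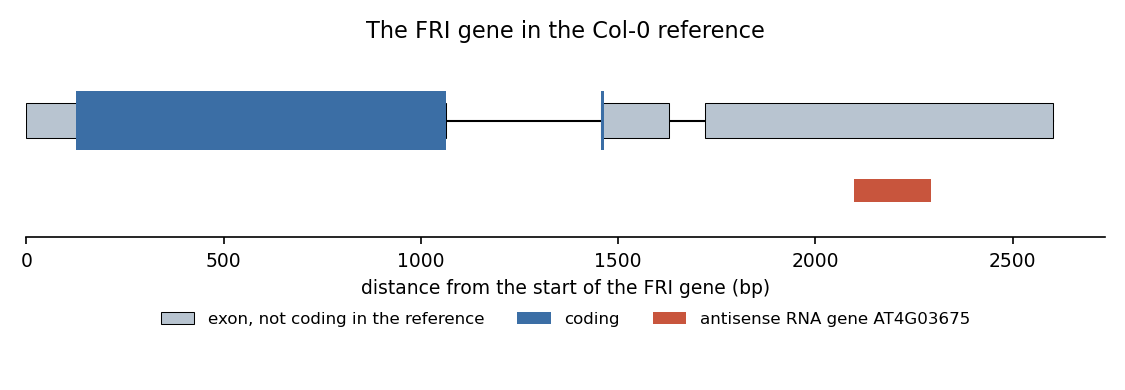
Exons, coding part and antisense gene of *FRI* in the Col-0 reference, drawn by distance in bp from the start of the gene. The coding part fills most of exon 1 and only the first 6 bases of exon 2, and the 195-bp antisense gene lies within exon 3.

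None of the 10 activators passed the test for a difference between the genotypes. The values log2(FPKM + 1) were compared with limma over the 20142 genes whose mean reached 0.5 FPKM, a filter that all 10 genes passed. At an adjusted p under 0.05, 0 of the 10 were called, against 2 of 20142 tested genes (0.00993%), and the adjusted p of each of the 10 was 0.9998. At an unadjusted p under 0.05, limma gave 1 of the 10, *FLX*, against 522 tested genes (2.59%). Of the 10 differences, 5 were above and 5 below 0, with a median of -0.02 on the log2(FPKM + 1) scale beside 0.00 over all tested genes. *FLC*, their target, measured 2.05 and 1.13 FPKM in the wild-type libraries against 43.4 and 37.6 FPKM in the transgenic ones, a log2 difference of 4.02 with an adjusted p of 0.0835 in the same limma fit and of 0.00349 when the replicate number was used as a block, so that whether *FLC* was called depended on the block.

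The intervals of the differences left out a halving and a doubling for each of these genes. On the log2(FPKM + 1) scale a doubling of a gene's Col-0 mean is less than 1, and for the lowest of the 10, *FRL1*, it is 0.86 and a halving -0.76. The 95% interval of the limma difference stopped short of both for all 10 genes, and for 81.1% of all tested genes. The farthest bound was that of *FES1* at -0.60. Smaller differences remain within the intervals, whose median half-width was 0.28 for the 10 genes and 0.33 over all tested genes.

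**Figure D2:**
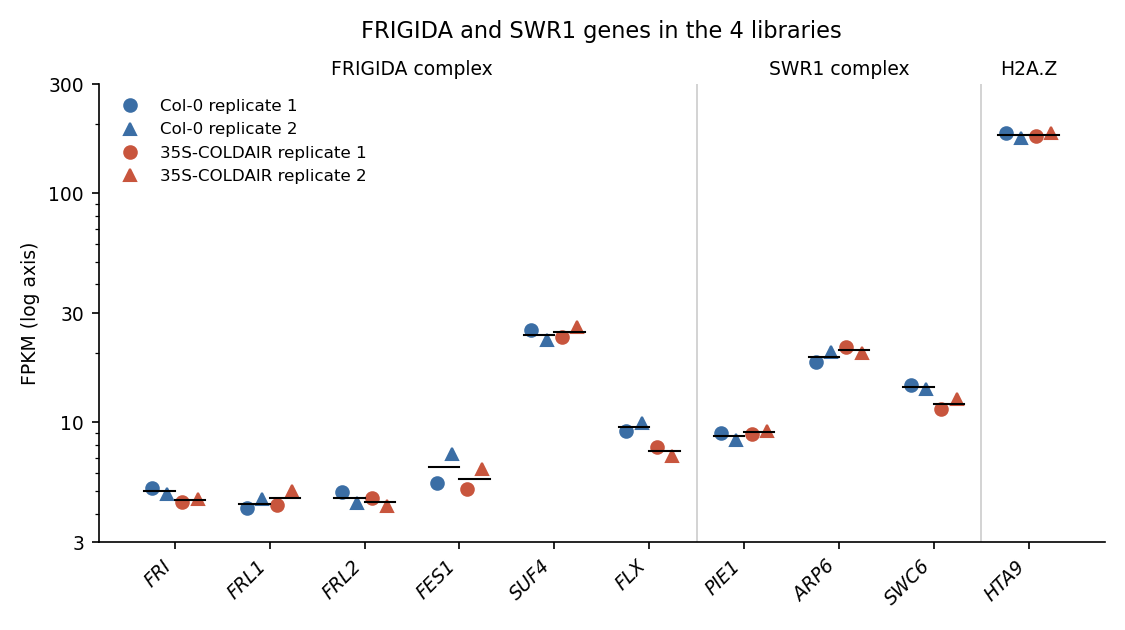
FPKM of the 10 genes on a log axis in each of the 4 libraries, Col-0 in blue and *35S-COLDAIR* in red, with circles for replicate 1, triangles for replicate 2 and black bars for the mean of each genotype. *HTA9* lies near 180 in all libraries, and the *35S-COLDAIR* points of *FRI*, *FLX* and *SWC6* lie below both Col-0 points.

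The levels of the 10 genes covered a wide range. Apart from *SUF4*, the FRIGIDA complex genes had lower means than the SWR1 complex genes, although the ranges of *PIE1* and *FLX* overlapped. *HTA9* was highest with a mean of 179.6 FPKM over the 4 libraries, 7.33 times *SUF4* at 24.5 FPKM. *ARP6* at 20.0 FPKM and *SWC6* at 13.2 FPKM came next, and each of these steps, like that from *SWC6* to *PIE1* at 8.87 FPKM, was larger than the spread over the libraries. Below them, each neighbour overlapped the next in range, with *FLX* at 8.50, *FES1* at 6.02, *FRI* at 4.79, *FRL2* at 4.59 and *FRL1* at 4.55 FPKM. *FRI*, *FRL1* and *FRL2* thus stood at about the same level, in the lower part of the tested genes by percentile (24.9 to 26.0), whereas *HTA9* stood at the percentile 96.3.

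All 10 genes were steady from library to library. The highest library was less than 1.5 times the lowest for each of them, as for 76.3% of tested genes, and the median of this ratio was 1.15 for the 10 and 1.24 for all tested genes. *HTA9* varied least, with a ratio of 1.05, and *FES1* most, with 1.42. The *35S-COLDAIR* library was the lower in both same-numbered pairs for 5 genes and the higher in both for 1, *FRL1*. This count was not made over all tested genes, so no lean of the 10 genes can be read from it.

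In the FRIGIDA complex, *FRI*, which encodes the scaffold protein, measured 5.18 and 4.86 FPKM in the wild-type libraries against 4.49 and 4.65 FPKM in the transgenic ones. Both *35S-COLDAIR* values were below both Col-0 values, and the ratio of the means was 0.911. The log2 difference was -0.11 ± 0.11 (SE) with a 95% interval of -0.41 to 0.18, so this gap was within the error of the limma fit. Of the 10 genes, 3 had groups that did not overlap with *35S-COLDAIR* lower, namely *FRI*, *FLX* and *SWC6*, and 0 had such groups with *35S-COLDAIR* higher. Over all tested genes these shares were 14.3% lower and 14.8% higher. With 2 libraries against 2, an exact permutation test of 1 gene cannot give a two-sided p below 0.333.

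*FRL1* and *FRL2* encode relatives of FRI, of which FRL1 is needed for the late flowering that an active *FRI* gives. *FRL1* measured 4.21 and 4.62 FPKM in the wild-type libraries against 4.34 and 5.03 FPKM in the transgenic ones. *FRL2* measured 4.95 and 4.43 FPKM in the wild-type libraries against 4.65 and 4.31 FPKM in the transgenic ones. In both genes the groups overlapped, and the log2 differences were 0.07 (95% interval -0.27 to 0.41) and -0.05 (-0.37 to 0.27). Each gene has 1 exon, at chr5:5344495-5346106 and chr1:11412392-11414502, and their coding sequences of 470 and 473 codons matched at 72.9% of aligned bases. The longest stretch shared by their whole transcripts was 22 bases. Against the cut-short *FRI* frame of 945 bases, *FRL1* with its 1413 bases matched at 66.2% of aligned bases. With gaps counted this was 42.7%. The longest stretch shared by the whole *FRI* and *FRL1* transcripts, the bases behind the *FRI* stop included, was 11 bases.

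*FES1*, which encodes a CCCH zinc finger protein, measured 5.46 and 7.27 FPKM in the wild-type libraries against 5.11 and 6.24 FPKM in the transgenic ones. Replicate 2 was higher than replicate 1 in both genotypes, by 1.28 times over their means, and the groups overlapped. The log2 difference of -0.14 ± 0.18 (SE) had the widest interval of the 10, from -0.60 to 0.33. *SUF4*, which encodes the C2H2 zinc finger protein that binds DNA for the complex, measured 25.4 and 23.0 FPKM in the wild-type libraries against 23.5 and 26.2 FPKM in the transgenic ones. The order of its libraries was crossed between the genotypes, and the log2 difference was 0.04 (95% interval -0.24 to 0.31). With a mean of 24.5 FPKM, *SUF4* stood well above the other FRIGIDA complex genes, of which *FLX* came next.

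*FLX*, which encodes a coiled-coil protein of the complex, had the largest difference of the 10. It measured 9.13 and 9.92 FPKM in the wild-type libraries against 7.82 and 7.15 FPKM in the transgenic ones, that is 9.52 ± 0.56 against 7.49 ± 0.47 (SD, n = 2 each), with a ratio of 0.786. The groups did not overlap, and the log2 difference was -0.31 ± 0.11 (SE) with a 95% interval of -0.60 to -0.03. *FLX* had an unadjusted p of 0.0386 from limma, or 0.0513 from limma with the filter dropped, and was not called after adjustment. By the size of its difference it ranked 1614 of 20142 genes. With any 1 library left out, its unadjusted limma p lay between 0.0752 and 0.167. *FLX* has 6 annotated transcripts, of 603 to 1739 bases, and the gene value does not tell them apart. In bulk RNA, less RNA per cell and fewer cells with the transcript cannot be told apart.

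**Figure D3:**
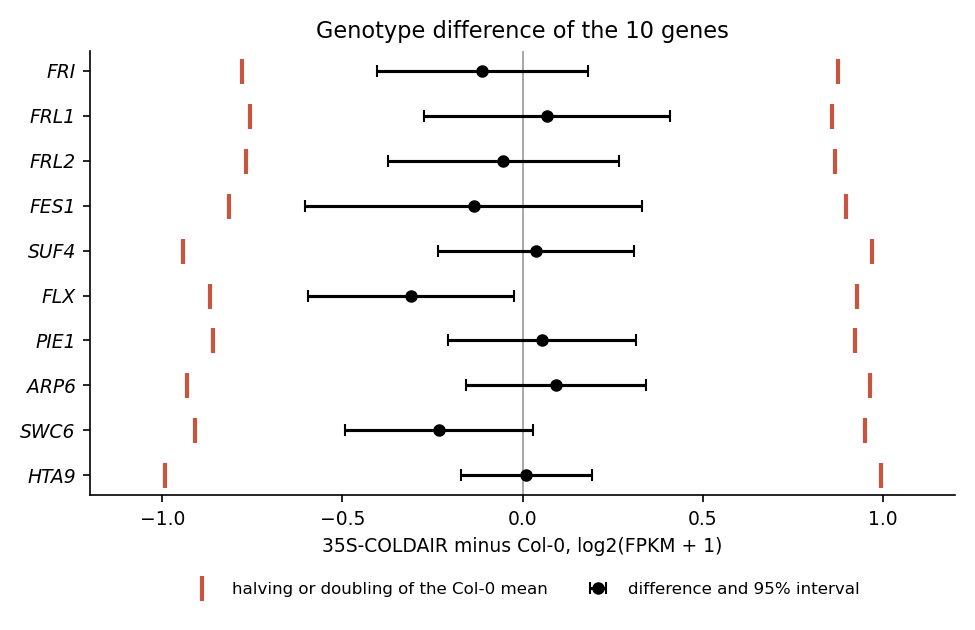
Difference of log2(FPKM + 1) between *35S-COLDAIR* and Col-0 for the 10 genes, as black points with bars for the 95% interval of the limma fit, and red ticks where a halving or a doubling of the Col-0 mean would lie. All intervals lie between the ticks, and only that of *FLX*, from -0.60 to -0.03, leaves out 0.

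In the SWR1 complex, *PIE1*, which encodes the ATPase that drives the exchange, measured 8.99 and 8.37 FPKM in the wild-type libraries against 8.91 and 9.19 FPKM in the transgenic ones. The groups overlapped, and the log2 difference was 0.05 (95% interval -0.21 to 0.32). *PIE1* is the longest of the 10 genes, at chr3:4065042-4074194 with 20 exons and 2055 codons. Its last 340 bp overlap AT3G12820 on the opposite strand, a gene at 0.56 to 1.63 FPKM in these libraries.

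*ARP6*, which encodes an actin-related subunit that PIE1-containing complexes need, measured 18.4 and 20.2 FPKM in the wild-type libraries against 21.3 and 20.0 FPKM in the transgenic ones. The lower *35S-COLDAIR* library fell between both Col-0 libraries, and the log2 difference was 0.09 (95% interval -0.16 to 0.34), the largest of the 10 above 0. *SWC6*, which encodes a HIT-type zinc finger subunit, measured 14.6 and 14.1 FPKM in the wild-type libraries against 11.4 and 12.7 FPKM in the transgenic ones. Both *35S-COLDAIR* values were below both Col-0 values, with means of 14.3 ± 0.36 and 12.0 ± 0.89 (SD, n = 2 each) and a ratio of 0.842. The log2 difference was -0.23 ± 0.10 (SE) with a 95% interval of -0.49 to 0.03 and an unadjusted p of 0.0708 from limma. The 3 SWR1 subunits thus had 2 values above 0 and 1 below.

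The estimated number of fragments behind these values also differed between the genes. Low values of long single-transcript genes were taken as the value of 1 fragment, and the depth that each implied was calculated. Only depths within a window fixed in advance were kept, and their median was about 19700000 to 23500000 fragments per library. The estimate could not fall outside that window, so it is rough and was not checked against read counts. At this depth and for the longest annotated transcript, *FRL1* rested on an estimated 133 to 190 fragments per library, *FRI* on 201 to 231 and *SWC6*, whose transcript has only 834 bases, on 201 to 248. On this estimate, the counting error alone was up to 8.66% for *FRL1* and 7.05% for *FRI*. *FLX* rested on an estimated 287 to 362 fragments and *HTA9* on 3040 to 3608, where the counting error so estimated was at most 1.81%.

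*HTA9* encodes H2A.Z, the histone that SWR1 places in nucleosomes. It measured 183.6 and 174.3 FPKM in the wild-type libraries against 177.8 and 182.6 FPKM in the transgenic ones. The genotypes overlapped, and the log2 difference of 0.01 had the narrowest interval of the 10, from -0.17 to 0.19. *HTA9* was also the highest of the 13 H2A genes followed here, ahead of *HTA10*, a canonical H2A gene with a mean of 160.2 FPKM, although *HTA10* reached 182.9 FPKM in 1 library and the ranges overlapped.

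*HTA8*, *HTA11* and *HTA4* are the other H2A.Z genes of the list. *HTA9* made up 66.0 and 69.9% of the summed FPKM of the 4 genes in the wild type, against 65.9 and 69.3% in the transgenic plants, so its share was set apart by replicate rather than by genotype. *HTA11* had a mean share of 22.6%, *HTA8* of 7.40% and *HTA4* of 2.25%. *HTA8*, with 23.3 and 19.0 FPKM in the wild-type libraries against 21.6 and 14.8 FPKM in the transgenic ones, had a log2 difference of -0.22 (95% interval -0.79 to 0.35). *HTA11*, with 64.3 and 51.8 FPKM in the wild-type libraries against 62.8 and 60.9 FPKM in the transgenic ones, had a log2 difference of 0.10 (-0.23 to 0.43). *HTA4* was low, with 7.07 and 4.36 FPKM in the wild-type libraries against 7.53 and 5.04 FPKM in the transgenic ones, with a log2 difference of 0.13. At an adjusted p under 0.05, limma called 0 of these 3 genes.

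A stretch of both coding sequences is shown because it tells how well fragments of the most abundant H2A.Z genes can be kept apart where they match best. It was chosen as the 60 aligned coding bases with the most identical bases. The 60 bases are coding bases 304 to 363 of *HTA9*, on chromosome 1, and 310 to 369 of *HTA11*, on chromosome 3, 5′ to 3′, with the 9 differing bases in capitals.
HTA9: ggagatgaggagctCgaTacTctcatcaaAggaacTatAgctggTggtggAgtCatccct
HTA11: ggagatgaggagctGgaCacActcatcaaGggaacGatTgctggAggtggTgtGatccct
Over the whole coding sequences, *HTA9* matched *HTA11* at 75.6% and *HTA8* at 72.6% of aligned bases. Over the whole transcripts, the longest stretch that *HTA9* shared was 14 bases with *HTA11*, 17 with *HTA8* and 15 with *HTA4*. How reads with several mapping places were treated is not given in the sources used here.

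**Figure D4:**
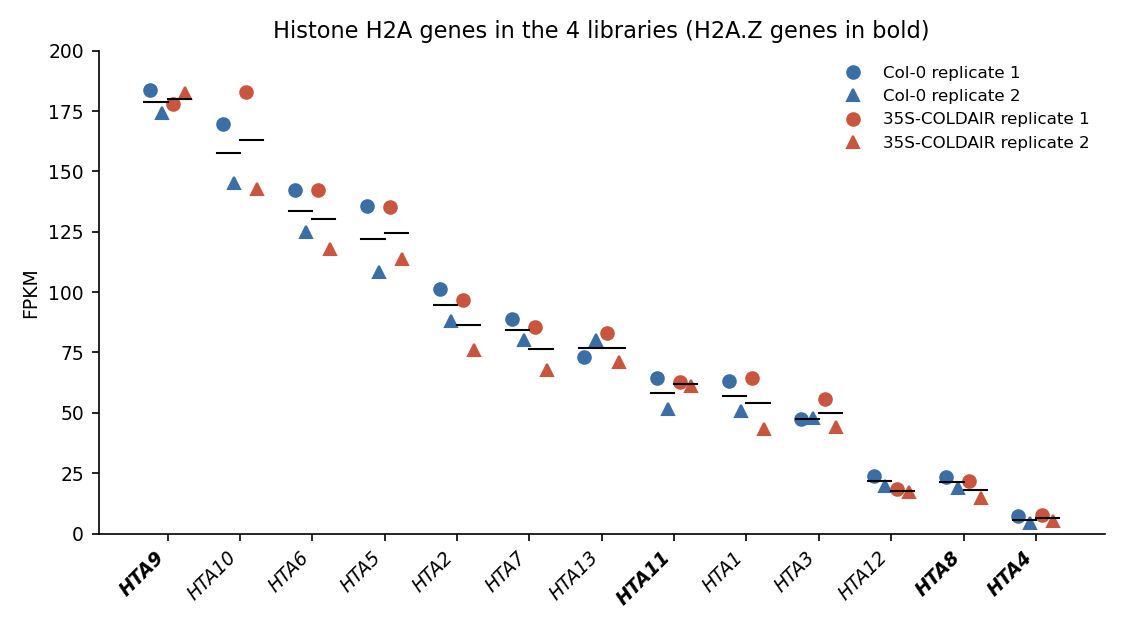
FPKM of 13 histone H2A genes in the 4 libraries, ordered by mean, with Col-0 in blue, *35S-COLDAIR* in red, circles for replicate 1, triangles for replicate 2, black bars for genotype means and H2A.Z genes in bold. *HTA9* stands between 174.3 and 183.6, and replicate 2 lies below replicate 1 in both genotypes for 7 of the 9 other H2A genes and for *HTA4*, *HTA8* and *HTA11*.

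The H2A genes other than H2A.Z give the histone that SWR1 removes and related variants. Of these 9, 4 had a value above and 5 below 0 in the genotype comparison, from -0.27 for *HTA12*, which encodes a heterochromatic H2A.W, to 0.06 for *HTA3*, which encodes an H2A.X, and limma called 0 of them. *HTA12* measured 23.8 and 19.7 FPKM in the wild-type libraries against 18.3 and 17.3 FPKM in the transgenic ones. Replicate 2 was below replicate 1 in both genotypes for 7 of these 9 genes and for the other 3 H2A.Z genes, against 32.7% of all tested genes. *HTA9* did not share this, since its replicate 2 was the lower in Col-0 and the higher in *35S-COLDAIR*.

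The relatives of FRI and FLX gave 0 calls in 8 genes, with 5 values above and 3 below 0. *AT1G67170*, an FLX relative, had the largest of these above 0, 0.21, with 8.20 and 7.16 FPKM in the wild-type libraries against 9.24 and 8.74 FPKM in the transgenic ones. *AT5G27220*, a FRI relative near the filter at a mean of 0.66 FPKM, had the largest below 0, -0.09. The FRIGIDA-like genes *AT3G22440*, *AT5G48385* and *AT4G14900* were far higher than *FRI* itself, with means of 186.7, 68.1 and 37.3 FPKM and log2 differences of -0.01, 0.06 and 0.11.

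The other SWR1 subunits and partners gave 0 calls in 10 genes, with 4 values above and 6 below 0 and a median of -0.02. *TAF14*, which encodes a YEATS domain protein, had the largest below 0, -0.41 with a 95% interval of -0.98 to 0.15, and was low, with 1.83 and 2.54 FPKM in the wild-type libraries against 1.70 and 1.09 FPKM in the transgenic ones. *AT5G67630*, which encodes a RuvB-like ATPase, had the largest above 0, 0.15, at 14.0 and 15.5 FPKM in the wild-type libraries against 16.5 FPKM in both transgenic ones. *ARP4*, which encodes the actin-related subunit that SWR1 shares with other remodelers, measured 35.4 FPKM in each wild-type library against 36.7 and 36.9 FPKM in the transgenic ones, and was chosen for mention after its values were seen.

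The cap-binding genes *ABH1* and *CBP20*, whose loss lowers *FLC*, and the INO80 remodeler genes *INO80* and *ARP5* gave 0 calls in 4 genes. The differences ran from 0.01 for *CBP20*, with 38.8 and 37.2 FPKM in the wild-type libraries against 36.0 and 40.9 FPKM in the transgenic ones, to 0.20 for *ARP5*. *ARP5* measured 7.70 and 8.05 FPKM in the wild-type libraries against 9.09 and 9.32 FPKM in the transgenic ones. The groups of *ARP5* and of *ABH1* did not overlap, with *35S-COLDAIR* higher, as in 14.8% of all tested genes.

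The green and floral markers of the 4 libraries went with the seedlings that the labels name. The leaf gene *RBCS1A* was at 11507 to 13164 FPKM, and the floral genes *AG*, *AP3* and *PI* reached at most 1.06 FPKM. The root genes *COBL9*, *EXPA7* and *PHT1;1* were above 0 in every library. So were *AG*, *PI* and the seed genes *CRA1*, *CRU3* and *OLEO1*, so a value above 0 does not by itself show a tissue. The summed FPKM of the 3 root genes was 31.7 and 33.9 in the wild type against 32.4 and 26.0 in the transgenic plants. *EXPA7*, a root hair gene, had 5.56 and 6.63 FPKM in the wild-type libraries against 4.57 and 3.33 FPKM in the transgenic ones. In the other root genes the groups overlapped. *COBL9* had 1.74 and 2.21 FPKM against 2.23 and 1.67 FPKM, and *PHT1;1* had 24.4 and 25.1 FPKM against 25.6 and 21.0 FPKM. The seed storage gene *CRA1* ranged from 5.60 to 22.0 FPKM, highest in Col-0 replicate 1. Their part in the lower values of *FLX* and *SWC6* was not tested.

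In the annotation, 7 of the 10 genes have 1 transcript, and 6 overlap another gene, 5 of them with a gene on the opposite strand. Apart from *FRI* and *PIE1*, these overlaps with genes on the opposite strand covered 5 bp in *FES1*, 15 bp in *ARP6* and 21 bp in *HTA9*. *SUF4* contains the snoRNA gene AT1G06397, of 146 bp, on its own strand. Fragments of another gene could thus be counted over the longest stretches in *PIE1*, *FRI* and *SUF4*.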

How the data were processed

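The values were the FPKM that the authors deposited, 33854 genes in each of 2 tables. Each table holds 1 Col-0 and 1 *35S-COLDAIR* library with the same replicate number in the column names. These names gave the samples, and the number of columns without a sample was 0. The names of the 2 tables themselves carry the opposite replicate number, so the numbering of the replicates rests on the column names. The study's methods name TopHat on TAIR10 with up to 2 mismatches and cuffdiff, whereas the submitters' processing notes name STAR 2.5.2b and Cuffdiff. Annotation, strand setting and whether the tables were normalized together are not given in the sources used here.

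The levels log2(FPKM + 1) were compared with limma 3.58.1 in R 4.3.3 (lmFit, eBayes with a trend, two-sided, Benjamini-Hochberg over all tested genes, threshold 0.05), for genes whose mean reached 0.5 FPKM. The pseudocount of 1 FPKM understates changes of low genes. The script was tested on simulated data. Structures and sequences came from RefSeq TAIR10.1, in which all 10 genes were found. Coding sequences were aligned with Biopython 1.88.

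The 10 genes and the related lists were chosen with earlier results of these data known, so no set test was made. Named were all 10 genes, *FLC*, the nearest relatives of *FRI* and *HTA9*, and in each list the largest increase and decrease. As alternatives, the pseudocount was set to 0.1 FPKM, the filter was dropped or raised to 1 FPKM, the libraries were quantile normalized or centred on their medians, the variance trend was left out, the replicate number was used as a block, and each library was left out in turn.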

Additional observations from a re-analysis of the deposited data

How the results depend on the processing

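None of the 10 activators was called under any of 11 alternatives (limma, adjusted p under 0.05). *FRI* (-0.15 to -0.07), *FLX* (-0.37 to -0.25), *SWC6* (-0.30 to -0.16), *PIE1* (0.01 to 0.10) and *ARP6* (0.03 to 0.16) kept their direction on the log2 scale in all 11. Much of this was fixed in advance. The changed filters, the left-out trend and the block cannot alter a difference. In *FRI*, *FLX* and *SWC6*, whose groups did not overlap, leaving out a library cannot turn the sign. *FRL1*, *FRL2*, *FES1*, *SUF4* and *HTA9* changed sign only when a library was left out, which leaves 1 genotype with 1 library that is assumed to vary like the other. The values then ran from -0.020 to 0.16 for *FRL1*, -0.12 to 0.013 for *FRL2*, -0.31 to 0.043 for *FES1*, -0.037 to 0.11 for *SUF4* and -0.027 to 0.047 for *HTA9*. *FRL1* turned negative without *35S-COLDAIR* replicate 2, *FRL2* positive without Col-0 replicate 1, *FES1* positive without Col-0 replicate 2, and *SUF4* and *HTA9* negative without Col-0 replicate 2 or *35S-COLDAIR* replicate 2. Over all tested genes, 1 was called higher and 1 lower. Without a variance trend 2 were higher, with a pseudocount of 0.1 FPKM 2 were lower, and with a library left out 0 were higher and 0 to 1 lower. The cause was not tested. With the replicate block, a comparison inside each table, 3 were called higher, *FLC* among them, and 4 lower, and *FLX* had an adjusted p of 0.599. At an unadjusted p under 0.05 the block gave 1608 of 20142 tested genes against 522 without it, and 1 of the 10 activators, *FLX*, in both fits. Same-numbered libraries deviated together with a correlation of 0.37 over genes, and with only 2 numbers the pairing stays a hint. With 2 libraries per genotype, the data do not tell apart the differences that lie within the interval given for each gene.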

Other observations

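The summed FPKM of the 9 H2A genes other than H2A.Z was 845.2 in replicate 1 and 745.0 in replicate 2 of Col-0, and 864.3 and 694.5 in *35S-COLDAIR*. For single genes the ratio of replicate 2 to replicate 1 over both genotypes ran from 0.74 for *HTA1* to 0.97 for *HTA13*. Among the H2A.Z genes it was 0.64 for *HTA4*, 0.75 for *HTA8*, 0.89 for *HTA11* and 0.99 for *HTA9*. *HTA12*, with a ratio of 0.88 between replicates, had one of 0.816 between the genotypes. These genes were looked at in this way after their values were seen, and the replicate difference was not tested.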
